A study of Mus musculus with 16 samples.

Results

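Mature miRNAs mmu-miR-10a-5p and mmu-miR-10b-5p were followed through 16 small RNA libraries of mouse blastocyst fragments. Both were chosen by name, as the 5p products of the miR-10 genes in the Hox clusters, with their levels in these libraries already known. They are 2 of the 1978 mature miRNA names listed, of which 497 had at least 1 count. Their levels, their differences between groups and their ratio are therefore described with errors and without tests.

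Blastocysts were cut with a laser into a polar fragment, which holds the inner cell mass and the trophectoderm over it, and a mural fragment of trophectoderm. The 6 groups were polar and mural fragments of normal embryos (WT) taken at embryonic day 4.5 (n = 2 libraries each), of embryos diapaused in vivo, taken at EDG 7.5 as the labels write it (n = 3 each), and of embryos treated with an mTOR inhibitor (mTORi, n = 3 each). The labels give no embryonic day for the mTORi embryos, and no strain, number of embryos per library or batch. Age and treatment therefore cannot be told apart in any comparison with WT, or in those of mTORi with diapaused embryos. For the 3 mural mTORi libraries the title gives no part and holds the word diapaused, against the treatment label. Their group was taken from the labels for tissue and treatment, which the headers of their count columns match.

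The miR-10 family belongs to the oldest animal miRNAs, and its genes lie among the Hox genes, the transcription factors that pattern the body axis. A miRNA guides Argonaute to messenger RNAs that pair with its seed, bases 2 to 8, so miRNAs that share a seed have largely overlapping predicted targets. Among the known targets of miR-10 are Hox genes themselves. Trophectoderm is the outer epithelium of the blastocyst that makes the placenta and starts implantation, and its mural side leads attachment in the mouse. In diapause a blastocyst waits unimplanted and can later resume development, and inhibition of mTOR, a kinase that couples nutrients to growth, induces a similar wait. Diapaused and mTORi libraries together are called paused here.

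The mature sequences are shown first because the counts rest on telling them apart, with the seed in capitals:
miR-10a-5p: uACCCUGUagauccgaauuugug
miR-10b-5p: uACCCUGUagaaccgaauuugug
Counted from the 5′ end, they differ by the single substitution U12A, from miR-10a-5p to miR-10b-5p, and 22 of 23 bases are identical. The same pair follows with only that base in capitals:
miR-10a-5p: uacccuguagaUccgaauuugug
miR-10b-5p: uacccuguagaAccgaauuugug
The difference lies outside the seed ACCCUGU, which no other of the 1679 mouse mature miRNAs in the RefSeq table carries. No other mature sequence came within 3 substitutions of either. How the counting assigned a read with an error at position 12 is not given in the sources used here, and exchange of reads within the pair was not tested.

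On GRCm38.p6, miR-10a-5p lies at chr11:96317186-96317208 on the plus strand. Its hairpin, chr11:96317165-96317274, lies between genes, 993 bp upstream of Hoxb4 in the Hoxb cluster. MiR-10b-5p lies at chr2:74726074-74726096 on the plus strand. Its hairpin, chr2:74726070-74726137, is intronic to annotated transcripts of Hoxd3 and of Hoxd4. The hairpins are printed with both mature arms in capitals, since both arms were counted:
Mir10a: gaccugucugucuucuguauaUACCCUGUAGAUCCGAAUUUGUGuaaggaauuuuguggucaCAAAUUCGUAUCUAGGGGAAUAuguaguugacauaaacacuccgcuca
Mir10b: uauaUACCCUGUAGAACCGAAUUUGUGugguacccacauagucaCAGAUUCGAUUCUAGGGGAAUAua
The 5p arms made up nearly all counts from both genes. MiR-10b-5p had 7450 counts and miR-10b-3p 31, so the 3p arm was 0.414% of that hairpin's counts (exact 95% interval 0.282% to 0.588%). MiR-10a-5p had 599 counts and miR-10a-3p had 0 (3 counts of 599, the limit used here for a count of 0, allow a 3p share of up to 0.501%).

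The libraries were shallow, with 1744 to 20051 miRNA counts each and 122251 in all, and intervals here cover counting error only. Replicates of every group differed by more than sampling noise (chi-square per degree of freedom 1.89 to 16.1), so each was kept as a library of its own. Markers of pluripotent cells followed the dissection in WT and diapaused embryos, and in mTORi embryos their counts were too few to show it. The 6 miRNAs of the miR-302/miR-367 list, which mark pluripotent cells, gave 15 counts in polar WT, 15 in polar diapaused and 2 in polar mTORi libraries and 0 in all 8 mural libraries. Of that list, miR-302c-3p was at 0 everywhere. The miR-290 cluster made up 26.4% to 50.7% of every library. Polar mTORi replicate 3 stood apart through miR-203-3p, an epidermal miRNA, which took 748 of its counts (21.4%). It was also high in miR-205-5p of the same marker list, with 156 counts against 9 and 5 in the rest of its group. Chosen after their values were seen, let-7b-5p (97 counts against 18 and 14) and miR-21a-5p (127 against 27 and 6) were high there too. Names with several genomic copies were nearly empty in these files. Of 53 listed names with 2 or more loci in the RefSeq table, 2 had at least 10 counts, miR-92a-3p (713) and let-7f-5p (19), while miR-16-5p had 2 and miR-26a-5p 1, against 1548 for miR-26b-5p, which has 1 locus. How reads that match several loci were counted is not given in the sources used here, so a low count of such a name is not read as absence. MiR-10a-5p and miR-10b-5p have 1 locus each. In bulk fragments, fewer cells with a miRNA and less of it in each cell cannot be told apart.

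MiR-10b-5p was an abundant miRNA in every group, and paused and mural fragments held more of it. Levels are CPM, counts scaled to libraries of equal size with TMM factors, and the 2 sequences are of equal length. In polar WT libraries it stood at 7266 and 10295 CPM. In polar diapaused libraries 1, 2 and 3 it stood at 35103, 47991 and 28532 CPM. In polar mTORi libraries it was 129118, 51598 and 37049 CPM. Every paused polar library lay above both polar WT libraries, and polar mTORi replicate 1 lay far above the other two of its group.

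In mural WT libraries the level of miR-10b-5p was 44554 and 33485 CPM. In mural diapaused libraries it was 91395, 68560 and 91088 CPM. In mural mTORi libraries it was 161350, 160312 and 182157 CPM, the highest 3 values of the 16. The 3 mural groups did not overlap with each other.

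The order of the group means was polar WT at 8780 ± 2142 CPM (SD, n = 2), polar diapaused at 37209 ± 9899 (n = 3), mural WT at 39020 ± 7827 (n = 2), polar mTORi at 72588 ± 49494 (n = 3), mural diapaused at 83681 ± 13096 (n = 3) and mural mTORi at 167940 ± 12323 (n = 3). Only the lowest and the highest group were separate from their neighbour in this order. Polar diapaused and mural WT, mural WT and polar mTORi, and polar mTORi and mural diapaused overlapped. Without polar mTORi replicate 1, that group's mean was 44324 ± 10288 CPM.

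As a share of all miRNA counts, miR-10b-5p was 0.907% ± 0.148 (SD, n = 2) in polar WT and 3.90% ± 0.776 (n = 2) in mural WT. It was 15.8% ± 0.379 (n = 3) in mural mTORi libraries, where it ranked 2, 1 and 2 among all miRNAs. Its rank was 21 and 19 in polar WT, 5 in both mural WT libraries, and 3 in all 3 mural diapaused libraries.

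**Figure D1:**
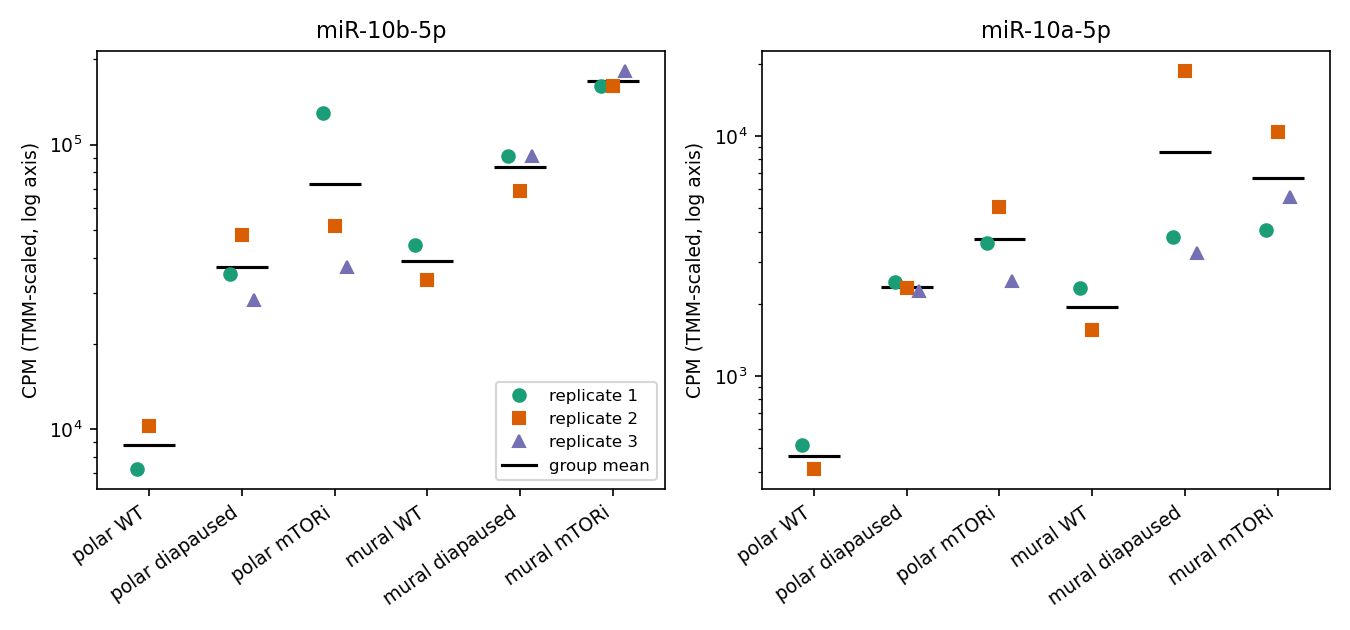
Level of miR-10b-5p (left) and miR-10a-5p (right) in each of the 16 libraries, in CPM after TMM scaling on log axes that differ between the panels; points are libraries and black lines are arithmetic group means. Polar WT libraries are the lowest for both, mural mTORi libraries are the highest for miR-10b-5p, and mural diapaused replicate 2 stands apart for miR-10a-5p at 18748 CPM.

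MiR-10a-5p followed a similar order at a much lower level and with far fewer counts. Polar WT libraries held 1 and 2 counts, polar diapaused libraries 37, 23 and 24, and polar mTORi libraries 10, 12 and 7. Mural WT libraries held 15 and 13 counts, mural diapaused libraries 38, 306 and 39, and mural mTORi libraries 17, 38 and 17. The 306 counts of mural diapaused replicate 2 were 51.1% of all miR-10a-5p counts of the series.

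In CPM, miR-10a-5p stood at 519 and 411.8 in polar WT, at 2465, 2329 and 2267 in polar diapaused and at 3577, 5075 and 2494 in polar mTORi libraries. The polar diapaused libraries were close together. Those of polar mTORi lay above them in CPM, replicate 3 by less than the 356 CPM that 1 count is worth there. As a share of counts that library (0.1999%) lay below all 3 polar diapaused libraries (0.242% to 0.265%), so the order depends on the TMM scaling. In mural fragments it stood at 2337 and 1555 CPM in WT, 3816, 18748 and 3268 in diapaused and 4058, 10431 and 5590 in mTORi libraries. All paused mural libraries lay above both mural WT libraries, and the mural diapaused and mTORi libraries overlapped.

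The group means of miR-10a-5p ran from polar WT (465.4 ± 75.8 CPM, SD, n = 2) through mural WT (1946 ± 553, n = 2), polar diapaused (2354 ± 101, n = 3), polar mTORi (3715 ± 1296, n = 3) and mural mTORi (6693 ± 3327, n = 3) to mural diapaused (8611 ± 8784, n = 3). Neighbours in this order overlapped in CPM between mural WT and polar diapaused, between polar mTORi and mural mTORi, and between mural mTORi and mural diapaused. Without mural diapaused replicate 2 the mural diapaused mean was 3542 ± 388 CPM, below both mTORi means.

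Since both miRNAs carry the same seed, their counts were also summed. Among polar libraries they made up together 0.956% ± 0.136 (SD, n = 2) of the counts for WT, 4.24% ± 0.866 (n = 3) for diapaused and 7.14% ± 4.56 (n = 3) for mTORi embryos. In mural fragments they made up 4.09% ± 0.831 (n = 2) of WT, 7.41% ± 0.265 (n = 3) of diapaused and 16.5% ± 0.713 (n = 3) of mTORi counts. The 3 mural groups did not overlap in this sum. The mural diapaused libraries lay within 7.11% to 7.60%, replicate 2 included.

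MiR-10b-5p outnumbered miR-10a-5p in all 16 libraries, by more than 10 to 1 in 15 of them. Over all libraries the ratio of their counts was 12.4, and it was 21.6 without mural diapaused replicate 2. In polar WT libraries the ratio was 14.0 (exact 95% interval 2.13 to 592) and 25.0 (6.57 to 212), so these libraries barely bound it. In polar diapaused libraries it was 14.2, 20.6 and 12.6. In polar mTORi libraries it was 36.1, 10.2 and 14.9.

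In mural WT libraries the ratio of miR-10b-5p to miR-10a-5p was 19.1 and 21.5. In mural diapaused libraries it was 23.9, 3.66 and 27.9. The interval of replicate 2 (3.22 to 4.16) lay far below those of replicate 1 (17.3 to 34.1) and replicate 3 (20.3 to 39.4). It was apart from the intervals of 14 of the other 15 libraries, all but polar WT replicate 1. In mural mTORi libraries the ratio was 39.8, 15.4 and 32.6, and the interval of replicate 2 (11.1 to 21.9) was apart from that of replicate 1 (24.6 to 68.7) and overlapped that of replicate 3 (20.2 to 56.3).

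The groups did not separate by the ratio. With 0.5 added to both counts, the mean log2 ratio in polar fragments was 3.80 ± 0.75 (SD, n = 2) for WT, 3.93 ± 0.37 (n = 3) for diapaused and 4.07 ± 0.94 (n = 3) for mTORi libraries. It was 4.29 ± 0.12 (n = 2) in mural WT, 3.74 ± 1.62 (n = 3) in mural diapaused and 4.73 ± 0.71 (n = 3) in mural mTORi libraries. From mural diapaused, the lowest, to mural mTORi, the highest, every group overlapped with the next in order. Without replicate 2 the mural diapaused mean was 4.67.

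**Figure D2:**
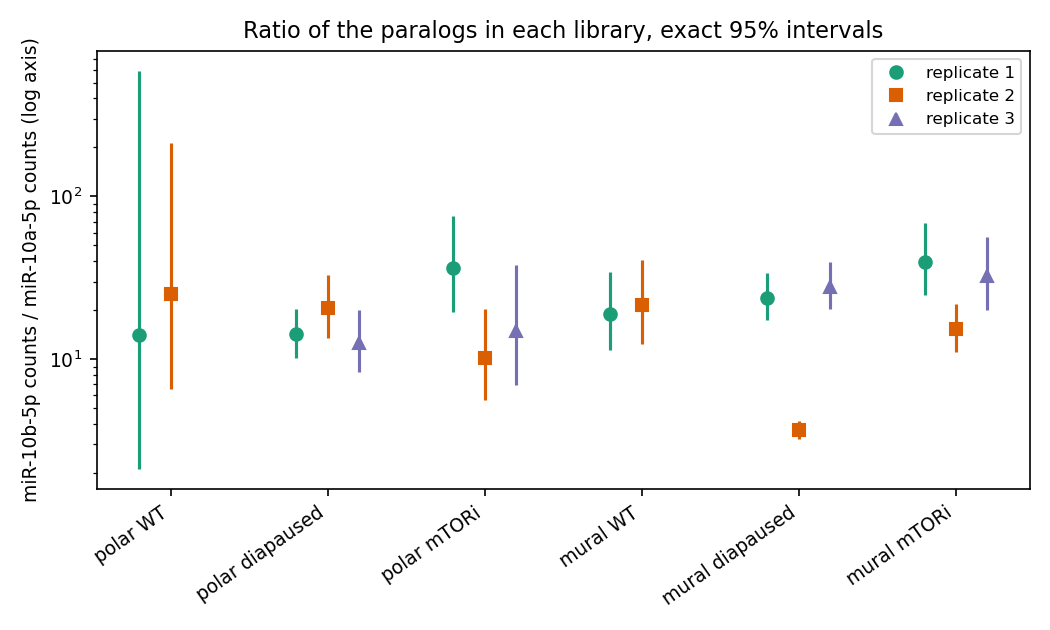
Ratio of miR-10b-5p counts to miR-10a-5p counts in each library on a log axis, with exact 95% binomial intervals as vertical lines (counting error only). 15 of the 16 libraries lie between 10.2 and 39.8, mural diapaused replicate 2 lies at 3.66, and the polar WT intervals are very wide because those libraries hold 1 and 2 counts of miR-10a-5p.

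In mural diapaused replicate 2, the library with the lowest ratio, the level of miR-10a-5p was 5.29-fold the mean of the other two mural diapaused libraries, the largest excess among the 99 tested miRNAs with a count there. MiR-10b-5p in the same library, at 68560 CPM, was below its level in both of them. This library was also the deepest, with 20051 counts. It also held the highest shares of 2 marker lists in its group, while other lists were not highest there. Its share of the miR-322/miR-503 cluster was the lowest of the group, 3.57% against 4.81% and 4.81%. The share of leukocyte miRNAs was also the lowest, with 1 count in each library of the group. Shares of erythroid and of stratified epithelial miRNAs in this library lay between those of the rest of its group. Both endothelial miRNAs (miR-126a-3p and miR-126a-5p) gave 5 counts in it, 0.0249%, against 0% and 0.0135% in the other two mural diapaused libraries. That list ran from 0% to 0.0155% of mural WT and from 0.0228% to 0.0860% of mural mTORi libraries. Of the 6 muscle miRNAs only miR-143-3p, a miRNA of smooth muscle, was found in it, with 33 counts. This was 0.165% of its counts, the highest muscle share of the 8 mural libraries, against 0.0952% and 0.122% in the rest of its group. The muscle list ran from 0.0466% to 0.0478% of mural WT and from 0.0573% to 0.111% of mural mTORi libraries. The single-locus miR-133b-3p of muscle and miR-214-3p of stroma were at 0 in it. Also at 0 were the other stromal and all 3 neural miRNAs, some of them names with several loci, for which a 0 shows little. Outside the lists, and chosen after their values were seen, miR-499-5p had 18 counts in it against 1 and 3 in the rest of its group, and miR-375-3p had 14 against 0 in all 15 other libraries. Their part in the miR-10a-5p level was not tested.

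Differences between groups are fitted log2 differences of level with their standard errors, from an edgeR model of all 16 libraries. The 4 comparisons with WT share the WT libraries of each part, and the comparisons of parts use those libraries again. In polar fragments, the diapaused minus WT difference was 2.05 (SE 0.42) for miR-10b-5p, 4.15-fold. For miR-10a-5p it was 2.36 (SE 0.99), with 84 counts against 3. Scaled for depth, that ratio of counts was 5.35 with an exact 95% interval of 1.77 to 26.5. Both miRNAs were higher in every diapaused than in every WT polar library. Of the 102 tested miRNAs 27.5% were separate in this direction, and 7.84% passed the edgeR test at an adjusted p under 0.05 in either direction. From the top of 102, miR-10b-5p ranked 5 and miR-10a-5p 2 by this difference.

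In mural fragments, the diapaused minus WT difference was 1.10 (SE 0.38) for miR-10b-5p, 2.14-fold. It was 2.16 (SE 0.69) for miR-10a-5p, and 0.82 without mural diapaused replicate 2. All diapaused libraries lay above all WT libraries for both miRNAs. That was so for 32.4% of tested miRNAs, and 9.8% passed the edgeR test. Over all tested miRNAs the median difference was 0.19, and miR-10b-5p ranked 20 and miR-10a-5p 5 of 102.

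In polar fragments, the mTORi minus WT difference was 3.02 (SE 0.44) for miR-10b-5p, 8.10-fold, and 2.997 (SE 1.01) for miR-10a-5p. Without polar mTORi replicate 1 the value of miR-10b-5p was 2.30. For miR-10a-5p the counts were 29 against 3, a depth-scaled ratio of 8.23 with an interval of 2.55 to 42.2. In mural fragments the difference was 2.11 (SE 0.40) for miR-10b-5p, 4.30-fold, and 1.78 (SE 0.70) for miR-10a-5p. The groups did not overlap in any of these. In the polar comparison 21.6% of tested miRNAs were separate in this direction and 22.5% passed the edgeR test. In the mural comparison the shares were 20.6% and 11.8%. From the top of 102, miR-10b-5p ranked 8 and 4 and miR-10a-5p 9 and 8 by the polar and the mural difference.

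Polar fragments held less of miR-10b-5p than mural fragments in all 3 treatments, and less of miR-10a-5p in WT embryos. The polar minus mural difference of miR-10b-5p was −2.12 (SE 0.44) for WT embryos. It was −1.17 (SE 0.33) for diapaused and −1.21 (SE 0.34) for mTORi embryos, and the libraries did not overlap in any of the 3. Without polar mTORi replicate 1 the last value was −1.95. Whether these differences differ from each other was not tested. For miR-10a-5p the value was −2.07 (SE 1.06) for WT, −1.87 (SE 0.57) for diapaused and −0.86 (SE 0.63) for mTORi embryos. The WT value rests on 3 polar counts, with a depth-scaled ratio of 0.233 (interval 0.0454 to 0.756). The diapaused value was −0.52 without mural diapaused replicate 2, and those libraries, separate in CPM, overlapped as shares (0.242% to 0.265% against 0.263% to 1.53%). The mTORi libraries overlapped, and the value was −1.47 without polar mTORi replicate 2 and −0.24 without mural mTORi replicate 2.

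Among all tested miRNAs, polar libraries were separate and lower in 25.5% in WT, 23.5% in diapaused and 6.86% in mTORi embryos. The edgeR test called 10.8%, 18.6% and 4.9% of them. The miR-322/miR-503 cluster, chosen as a marker of mural trophectoderm on these same libraries, made up 6.73% to 7.16% of mural WT, 3.57% to 4.81% of mural diapaused and 2.55% to 3.15% of mural mTORi counts. That list had all 4 of its members detected, and its sum was lower in the mural groups where miR-10b-5p was higher. Its members did not go alike. In log2 CPM, miR-503-5p was 14.77 and 14.79 in mural WT and 11.91, 11.43 and 10.91 in mural mTORi libraries. MiR-351-5p was 14.13 and 14.02 against 10.93, 10.69 and 11.33. MiR-322-5p overlapped, at 14.39 and 14.19 against 14.47, 13.98 and 14.57, and so did miR-322-3p. The list made up 0.344% to 0.850% of polar WT, 0.630% to 1.40% of polar diapaused and 0.486% to 1.92% of polar mTORi counts. In polar mTORi replicate 1, the library highest in miR-10b-5p among polar ones, it made up 1.40%, and the miR-302/miR-367 list was at 0. Replicate 2 of that group had more of the mural list (1.92%) with less miR-10b-5p, and replicate 3, the lowest in miR-10b-5p, had 0.486% and also 0 counts of the miR-302/miR-367 list. The part of mural cells in polar fragments was not tested.

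Natural diapause and mTOR inhibition were compared directly within each part, with no embryonic day given for the mTORi embryos. In mural fragments miR-10b-5p was higher under mTORi by 1.00 (SE 0.33), 2.01-fold, with no overlap. In polar fragments the difference was 0.97 (SE 0.33), the libraries overlapped, and the value was 0.23 without polar mTORi replicate 1 and 1.56 without replicate 3. For miR-10a-5p the difference was 0.64 (SE 0.63) in polar fragments, with the mTORi libraries above the diapaused ones in CPM but overlapping as shares of counts. In mural fragments it was −0.38 (SE 0.56), with overlap, and 0.95 without mural diapaused replicate 2. In the polar comparison 10.8% of tested miRNAs were separate and higher under mTORi, and 15.7% passed the edgeR test. In the mural comparison the shares were 11.8% and 0.98%. The median over all tested miRNAs in the mural comparison was −0.41.

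**Figure D3:**
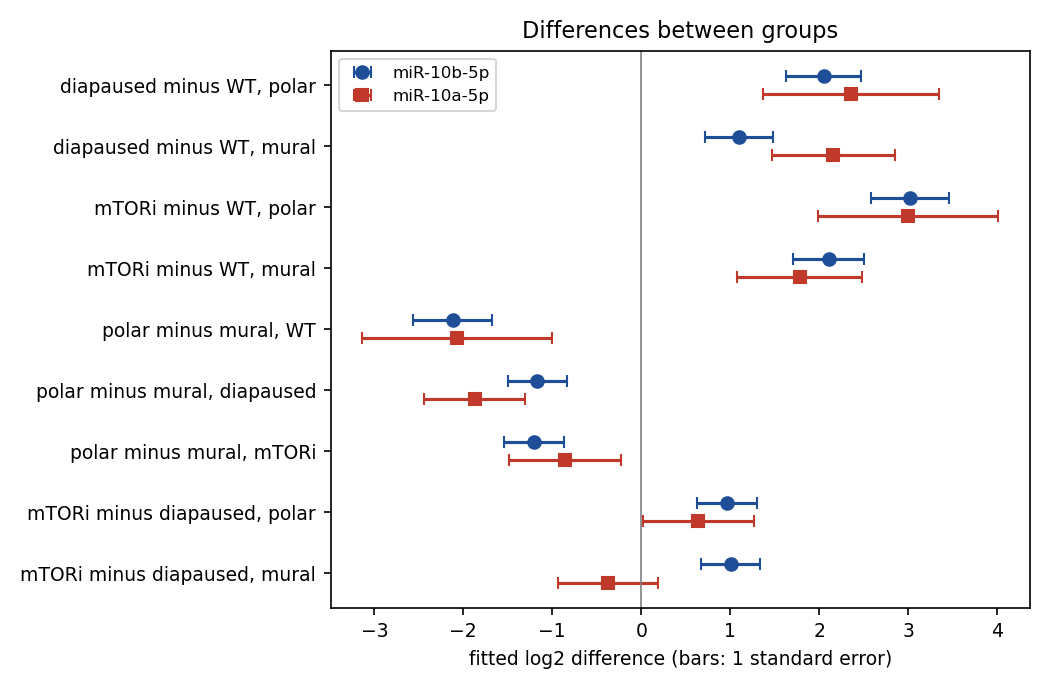
Fitted log2 differences of miR-10b-5p (circles) and miR-10a-5p (squares) in the 9 comparisons between groups, with bars of 1 standard error and a line at 0. Both miRNAs lie to the right of 0 in the 4 comparisons of paused with WT libraries and to the left in the 3 comparisons of polar with mural libraries; in mural fragments mTORi minus diapaused is 1.00 for miR-10b-5p and −0.38 for miR-10a-5p.

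Polar mTORi replicate 3, in which miR-203-3p took so many counts, was the lowest of its group for both miRNAs. With miR-203-3p alone left out of the total, the share of miR-10b-5p there went from 2.97% to 3.78%. Replicates 1 and 2 of the group were at 11.8% and 5.68% on the same basis. Without that library the group mean was 90358 ± 54815 CPM for miR-10b-5p.

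Few counts were listed for the other miRNAs of the Hox clusters. Of 7 names, which are the arms of miR-196a, miR-196b and miR-615, 3 had counts, 16 in all. MiR-196a is made from an intergenic hairpin in the Hoxb cluster and from an intron of an annotated Hoxc5 transcript, miR-196b overlaps an exon of Hoxa9, and miR-615 likewise lies in a Hoxc5 intron. MiR-615-3p had 10 counts in polar diapaused and 2 in mural diapaused libraries, miR-196a-5p had 3 and miR-196b-5p 1. All 16 counts were in diapaused libraries, which hold 65.9% of all counts. In the 4 WT libraries 0 of 21485 counts allow a share of up to 0.0140%, and in the 6 mTORi libraries 0 of 20235 allow up to 0.0148%. The share was 0.0199% over the diapaused libraries. By part, it was 0.0363% in polar and 0.00843% in mural diapaused libraries. The limits by part were 0.0449% in polar WT, 0.0343% in polar mTORi, 0.0203% in mural WT and 0.0261% in mural mTORi libraries. Only the polar mTORi limit lay below the diapaused share of its part. Since miR-196a-5p has 2 loci, its 3 counts are not set against those of miR-10a-5p.

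Sequence relatives outside the Hox clusters were the miR-99/miR-100 family, with their neighbours of the miR-125 family. They are shown with their seeds in capitals because the seed sets them apart from miR-10 while the middle of the sequence is shared:
miR-99a-5p: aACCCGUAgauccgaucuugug
miR-99b-5p: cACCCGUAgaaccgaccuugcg
miR-100-5p: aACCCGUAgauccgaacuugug
miR-125a-5p: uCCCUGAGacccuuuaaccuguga
MiR-100-5p shares the run GUAGAUCCGAA with miR-10a-5p, and miR-99b-5p shares GUAGAACCGA with miR-10b-5p. The run that miR-99a-5p shares with miR-10a-5p is GUAGAUCCGA. MiR-99b-5p lies at chr17:17830194-17830215 and miR-125a-5p at chr17:17830817-17830840, both on the plus strand.

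Of the 20 related names, 11 had counts and 2 passed the filter on low counts, miR-99b-5p and miR-125a-5p. Those were tested, since the choice of the miR-10 pair did not use them, although earlier results on them were known. Over the 16 libraries the Pearson r of their log2 CPM with miR-10b-5p was −0.19 and −0.16. Taken as deviations from the group means, these values had the other sign, 0.55 and 0.18. In mural fragments miR-99b-5p stood at 10905 and 10285 CPM in WT and at 2864, 1098 and 3288 CPM in mTORi libraries. This difference of −2.13 (SE 0.60, mean 10595 ± 438 against 2417 ± 1162 CPM, edgeR adjusted p = 0.0254) passed the threshold, with miR-99b-5p lower in the mTORi libraries. It was the single call among the 18 tests of these miRNAs over the 9 comparisons. It did not pass in any of the 5 fits that left out 1 library of the 2 groups (edgeR adjusted p 0.0642 to 0.130), and passed in all other alternatives.

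MiR-125a-5p in the same comparison stood at 14644 and 14829 CPM in WT and at 4774, 6588 and 8549 CPM in mTORi libraries. Of the 102 tested miRNAs 24.5% were separate and lower in this comparison. For miR-125a-5p the difference was −1.16 (SE 0.43, edgeR adjusted p = 0.0894), with no overlap. It passed the threshold, as miR-99b-5p did, with the replicate number as a block (edgeR adjusted p = 0.0296), with DESeq2 (adjusted p = 0.0343) and with only these 2 groups in the edgeR fit (adjusted p = 0.00155). Over all alternatives its adjusted p ran up to 0.354, without mural mTORi replicate 1. In mural diapaused minus WT, miR-99b-5p differed by −1.06 (SE 0.55, edgeR adjusted p = 0.302). Both miR-10 members were higher in these comparisons.

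**Figure D4:**
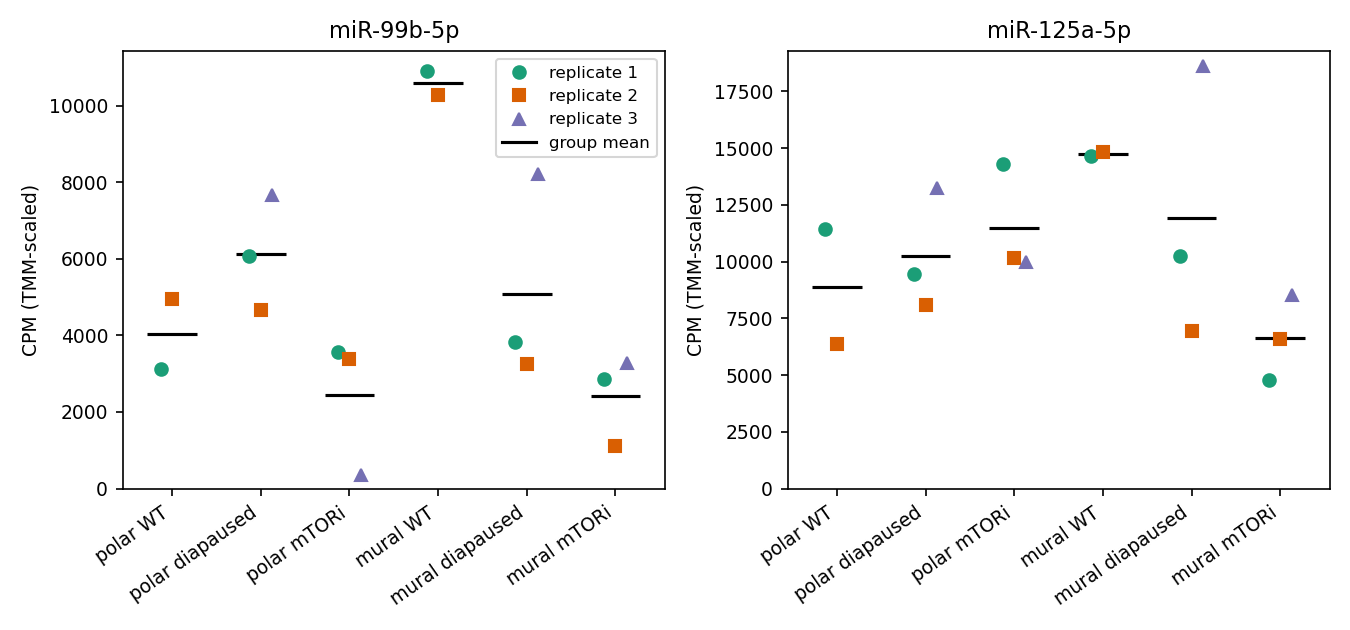
Level of miR-99b-5p (left) and miR-125a-5p (right) in each library, in CPM after TMM scaling on axes that start at 0; points are libraries and black lines are group means. In mural fragments all 3 mTORi libraries lie below both WT libraries for both miRNAs, the reverse of miR-10b-5p. Of the 102 tested miRNAs 24.5% were separate in that direction.

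The rarer relatives had too few counts for a test. MiR-100-5p had 40 counts, 19 of them in mural diapaused replicate 2, the library high in miR-10a-5p, against 23 in all 3 libraries of that group. MiR-99a-5p had 17 counts, of which 9 were in mural diapaused libraries and 7 in polar mTORi replicate 3, the library high in miR-203-3p, against 0 in the rest of that group. MiR-99b-3p had 15 counts. MiR-10b-3p had 4 counts in mural WT, 11 in mural diapaused and 8 in mural mTORi libraries, and 0, 5 and 3 in the matching polar groups. MiR-125b-5p, a name with 2 loci, was listed at 0 in all libraries.

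Across the 16 libraries, the tested miRNAs whose log2 CPM tracked miR-10b-5p most closely were miR-30d-5p (Pearson r = 0.86), miR-200c-3p (0.80), miR-10a-5p (0.79), miR-322-5p (0.76) and miR-200b-3p (0.75). For miR-10a-5p they were miR-10b-5p (0.79), miR-30d-5p (0.77), miR-200c-3p (0.72), miR-200b-3p (0.70) and miR-30b-5p (0.69). MiR-200 members mark epithelial cells. All these points share libraries, depth and scaling, so the values are descriptions.

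Taken as deviations from the group means, miR-10b-5p still tracked miR-30d-5p (r = 0.80) and miR-200c-3p (0.76). The values were lower for miR-200b-3p (0.64) and miR-322-5p (0.47). The correlation of miR-10b-5p with miR-10a-5p on that basis was −0.11, against a Spearman rho of 0.85 over the libraries as they stand. The Pearson r of the pair was 0.90 without mural diapaused replicate 2 and 0.55 without both polar WT libraries.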

How the data were processed

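Small RNA reads came from 16 libraries of blastocyst fragments. Per the labels' protocols, adapters carried molecular identifiers, 12 to 20 PCR cycles were run without size selection, and reads of 75 nt were taken. The authors deposited raw counts per mature miRNA name. GRCm build 38 is named in the submitters' processing notes; for aligner, counter, miRNA annotation version and collapsing of identifiers, a statement is not given in the sources used here. No label says whether replicates are separate embryos, so p-values measure the spread between these samples.

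The members and lists were chosen with earlier results of these data known. The fit was made with edgeR 4.0.16 under R 4.3.3 (filterByExpr, minimum count 10, total 15; 102 tested; TMM; 1 quasi-likelihood fit over 16 libraries with 10 residual degrees of freedom; two-sided, Benjamini-Hochberg over the tested miRNAs of a comparison, called at 0.05). The fit used a prior count of 0.125, and log2 CPM a prior count of 2. Standard errors of the edgeR differences were derived, as the size of the log2 difference over the square root of its quasi-likelihood F statistic. Intervals are exact (Clopper-Pearson, 95%), and the limit for a count of 0 is 3 counts of the total. The code was tested on simulated data. Alternatives were RLE factors, library size alone, scaling without the pair, no filter, DESeq2 1.42.0, only the compared groups, a replicate block, other prior counts and each library left out. Named were the pair, related miRNAs with at least 10 counts (others by their counts), the 5 most alike, and markers; miR-203-3p stands apart as an outlying marker. Sequences and positions are RefSeq's for GRCm38.p6, and 22 of 22 names matched.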

Additional observations from a re-analysis of the deposited data

How the results depend on the processing

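Directions of the pair's log2 differences held under every alternative that kept all libraries of the groups compared and gave a value for the miRNA. The 3 other scalings were among these, and some sizes moved. An alternative in which miR-10a-5p did not pass the filter gave no value for it. For miR-10a-5p, diapaused minus WT in polar fragments (2.36) was 2.25 with RLE factors, 2.80 with the replicate block, 2.23 at a prior count of 0.5 and 1.86 at a prior count of 2. At a prior count of 2, an alternative chosen after seeing the data, mTORi minus WT in polar fragments was 2.45 and polar minus mural in WT −1.60. For miR-10b-5p, diapaused minus WT in mural fragments (1.10) was 0.83 with RLE factors and with DESeq2 and 0.78 with library size alone, scalings that moved the median of all tested miRNAs there by −0.26 (RLE) and −0.31 (library size). Polar minus mural in diapaused embryos was −0.71 with library size alone (median moved by 0.46), and mTORi minus diapaused in mural fragments was 1.23 with library size alone, 1.30 with scaling without the pair and 1.33 with only those 2 groups. Related miRNAs called numbered 2 in mTORi minus WT, mural, under the replicate block, DESeq2 and the 2 groups alone (miR-99b-5p and miR-125a-5p), and 1 without a filter in mTORi minus diapaused, polar. The likeness of miR-10a-5p to miR-10b-5p was −0.11, to miR-30d-5p −4.67e-05 and to miR-200c-3p −0.12 as deviations from group means.

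With each library left out in turn, the ranges for miR-10a-5p were 2.19 to 2.39 (diapaused minus WT, polar), 0.82 to 2.49 (the same, mural), 2.47 to 3.45 (mTORi minus WT, polar), 1.41 to 2.24 (mural), −2.46 to −1.78 (polar minus mural, WT), −2.16 to −0.52 (diapaused), −1.47 to −0.24 (mTORi), 0.28 to 1.12 (mTORi minus diapaused, polar) and −0.70 to 0.95 (mural). The last changed sign without mural diapaused replicate 2 (0.95), mural mTORi replicate 1 (0.13) or mural mTORi replicate 3 (0.03). For miR-10b-5p they were 1.69 to 2.39, 0.82 to 1.34, 2.30 to 3.57, 1.85 to 2.36, −2.64 to −1.93, −1.34 to −0.94, −1.95 to −0.84, 0.23 to 1.56 and 0.91 to 1.25 in the same order. Related miRNAs called in mTORi minus WT, mural, went from 1 to 0 in all 5 such fits. A group left with 1 library was assumed to vary like the others. Same-numbered polar and mural libraries had correlated deviations of 0.11 to 0.18 in all 3 mTORi pairs and −0.01 to 0.36 in the 3 diapaused pairs. The 2 WT pairs share a single value, 0.31. In 6 of 8 cases a library matched its own number best, but the 2 WT cases cannot differ from each other. Diapaused replicates 1 and 2 did not match their own number best. The hint of pairing is weak, and the labels do not settle it. Since not every pair was over 0.1, the block was kept as an alternative. For polar minus mural in mTORi embryos it gave −1.31 for miR-10b-5p and −0.81 for miR-10a-5p. The cause of these changes was not tested. In polar WT, miR-10a-5p values rest on 3 of 6684 counts.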

Other observations

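In mural diapaused replicate 2, the miRNAs next after miR-10a-5p in excess over the mean of the other two mural diapaused libraries were, chosen after their values were seen, miR-21a-5p (3.10-fold, 270 counts against 52 and 65), miR-2137 (3.03-fold, 12 against 4 and 1), miR-205-5p (2.86-fold, 25 against 9 and 2), let-7b-5p (2.75-fold, 171 against 35 and 49), let-7i-5p (2.68-fold, 41 against 12 and 8) and miR-30a-5p (2.48-fold, 153 against 27 and 58). MiR-21a-5p and let-7 are widespread miRNAs of differentiated cells, and miR-205-5p is one of stratified epithelium. These excesses come from 1 library and have no replicate check. In mural mTORi replicate 2, the other mural library with a low ratio of miR-10b-5p to miR-10a-5p for its group, miR-10a-5p had 38 counts against 17 and 17 at totals of 3613, 4386 and 3490.

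The difference between the parts in the treatment effect was tested for the 2 related miRNAs that passed the filter. For miR-125a-5p the mTORi minus WT difference was 1.56 higher in polar than in mural fragments (log2, SE 0.63, edgeR adjusted p = 0.27), and for miR-99b-5p the value was 1.35 (SE 0.92, edgeR adjusted p = 0.565). Neither passed the threshold, which does not show that the parts responded alike.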
